A study of Mus musculus with 12 samples.

Results

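The difference between the responses of Pkm2 knockout (KO) and wild type (WT) CD4 T cells to T cell receptor stimulation was measured gene by gene. It is the change from resting to stimulated cells in KO minus the same change in WT, on the log2 scale, and it equals the KO to WT effect in stimulated cells minus that at rest. All 12 libraries of the series entered the contrast, joined by gene identifier, and 17460 of 55450 genes had enough counts to be tested. Of these, 121 genes differed between the genotypes in their response, 97 with a higher and 24 with a lower value in KO.

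The libraries came from mouse T cells that were cultured for 24 hours with 25 ng/mL human interleukin 7 (IL7), the survival cytokine of naive T cells. WT and KO cells with IL7 alone made up the resting groups. The stimulated groups, WT and KO, were also plated on wells coated with anti-CD3 at 1 ug/mL and anti-CD28 at 2 ug/mL, the signals for T cell receptor and costimulation, and RNA was taken from positively selected CD4 T cells. Each of the 4 groups held 3 libraries. The labels state neither the knockout allele, nor what drives it, nor the age or sex of the mice, nor whether replicate libraries stand for different animals. The p-values therefore measure only how these libraries vary, which may be technical variation.

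Pyruvate kinase catalyses the final step of glycolysis, from phosphoenolpyruvate to pyruvate, and Pkm2 is the splice form of the Pkm gene that proliferating cells use. A naive CD4 T cell is a small quiescent cell held in a homing program by transcription factors such as Klf2. When its receptor is engaged it shuts that program down, takes up nutrients, builds ribosomes and divides. Interferon-stimulated genes are switched on by a STAT and IRF complex that binds a short repeated GAAA motif, the interferon-stimulated response element.

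Pkm (chr9:59656368-59679375 in mm10, plus strand), the targeted gene, checks the labels. It measured 424, 431 and 509 CPM in resting WT, 172, 195 and 188 in resting KO, 2483, 2450 and 2521 in stimulated WT and 1056, 1065 and 1036 in stimulated KO (counts scaled to a fixed library total with TMM factors). Every KO library lay below every WT library of its condition, and the counts that remain add the M1 and M2 transcripts. The KO to WT effect was -1.29 ± 0.07 (log2, SE) at rest and -1.24 ± 0.07 in stimulated cells, and Pkm rose 5.47-fold on stimulation in WT against 5.68-fold in KO. The difference of responses was 0.05 ± 0.10 (edgeR quasi-likelihood test, Benjamini-Hochberg adjusted p = 0.83), so the depletion of Pkm did not differ detectably between the conditions.

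Library totals ran from 63266477 to 76891786 counts. The resting and stimulated libraries differ in more than the antibodies. Xist, the RNA of the inactive X chromosome, ran from 0.0496 to 0.0867 CPM over the 6 resting libraries and from 940.7 to 1126 CPM over the 6 stimulated ones. The Y-linked gene Ddx3y lay between 143 and 168 CPM at rest and had 0 counts in the 6 stimulated libraries. Both genotypes showed this. In any change from resting to stimulated cells, stimulation therefore cannot be told apart from the sex that these transcripts mark. This holds for every gene on any chromosome, and a difference of responses carries both. A rise or fall on stimulation stands below for this comparison of libraries. Of the 121 genes, 3 lie on chromosome X or Y, which does not limit the confounding to those genes.

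Markers of other cells were also present, and they moved with both genotype and condition. All 20 myeloid marker genes were detected in every library. Their summed level ran from 2065 to 6324 CPM in resting WT, from 1635 to 1799 in resting KO, from 83.6 to 131 in stimulated WT and from 165 to 176 in stimulated KO. The 20 genes lay above 0 in the difference of responses, with a median of 2.12, a median KO to WT effect of -1.45 at rest and 0.75 in stimulated cells, and 1 of them (Cd14) passed. The 17 B cell markers, all detected in every library, summed to 2456 to 4732 CPM in resting WT, 3226 to 3526 in resting KO, 736 to 1237 in stimulated WT and 1545 to 1599 in stimulated KO. Their median difference was 0.72, and none of the 17 passed. CD4 T cell markers summed to 6171 to 7751 CPM at rest in WT and 6789 to 7599 in KO, and to 4874 to 4912 in stimulated WT and 4758 to 4866 in stimulated KO, with a median difference of -0.08 over 18 genes. In bulk libraries fewer cells of a type and less RNA per cell cannot be told apart, and the part of these other cells in the results was not tested. A fit with the mean myeloid marker level of each library as a covariate was also made, and its values are given beside single genes.

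**Figure D1:**
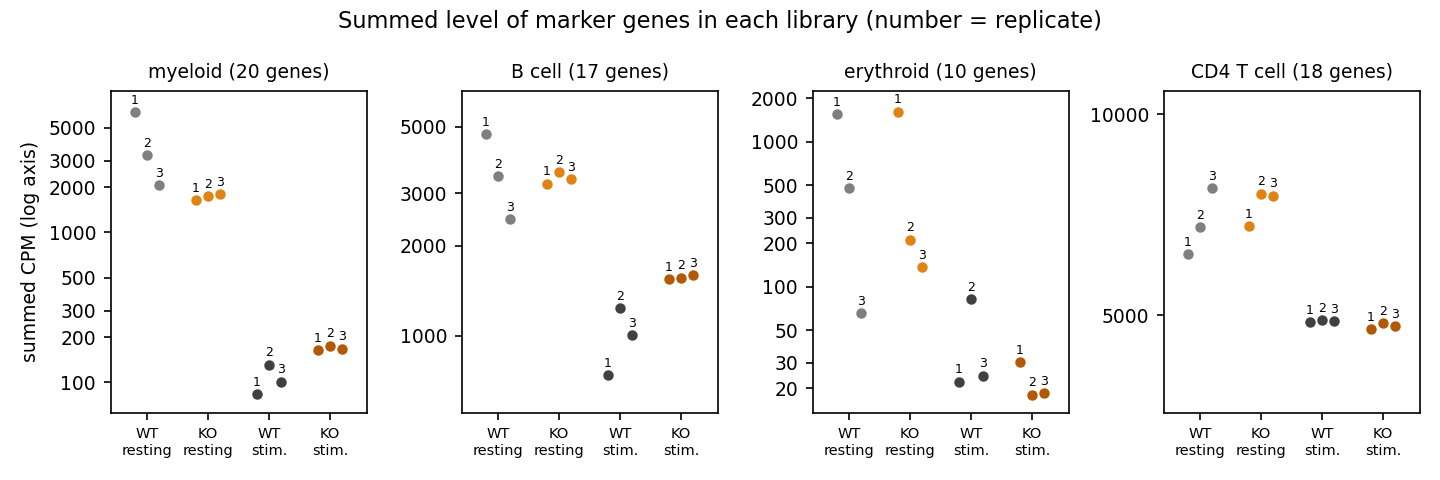
Summed CPM (log axis) of marker genes of myeloid, B, erythroid and CD4 T cells in each of the 12 libraries, with the replicate number beside each point. Myeloid markers fall from 2065 to 6324 CPM in resting WT to 83.6 to 131 in stimulated WT, but from 1635 to 1799 to only 165 to 176 in KO.

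Across the transcriptome the responses to stimulation were large and similar. In WT 14682 genes passed the threshold (84.1% of those tested) and in KO 14467 (82.9%), and the log2 responses of the genotypes had a Pearson r of 0.95 across the 17460 genes, which are not independent replicates. Against this, the difference of responses was called for 0.693% of the genes tested, 0.556% higher and 0.137% lower, and 2772 genes had an unadjusted p under 0.05. Absolute differences among the 121 ran from 0.27 to 5.56 with a median of 0.82, and adjusted p ran from 4.6e-06 to 0.049. Over all genes 8479 lay above 0 and 8981 below, with a median of -0.01. With DESeq2's size factors in place of TMM the count was 125, of which 87 were higher (69.6%) where the TMM scaling gave 80.2% higher.

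The number of calls depended on single libraries. Leaving out resting WT replicate 3 raised it to 1646, resting WT replicate 1 to 238 and stimulated WT replicate 2 to 217. It fell to 63 without resting WT replicate 2 or resting KO replicate 1, to 52 and 56 without resting KO replicates 2 and 3, to 39 and 42 without stimulated WT replicates 1 and 3, and to 55, 31 and 27 without stimulated KO replicates 1, 2 and 3. With the myeloid covariate 21 genes passed, 20 higher and 1 lower, of which 6 were among the 121 (among them Cxcr4, Tsc22d3, Mmp25, Tnfsf9 and Siah2). All 121 genes kept their direction in each of the 22 alternatives in which they were tested (106 of them under the stricter filter on low values). The alternatives reuse the libraries that chose these genes, so a kept direction is no independent support. A total of 18 genes passed in all 12 fits that left out a library: Cxcr4, Tsc22d3, Cd1d1, Dusp5, Gm4070, Mmp25, Parp12, Tgif1, Thsd4, Tnfsf9, Ypel5, Tcp11l2, H2-Q6, Phlda3, Cnn3, Nr1d2, Siah2 and Slc7a11.

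Most of the called genes answered stimulation in the same direction in both genotypes. Among the 97 higher genes, 67 fell on stimulation in both genotypes and fell less in KO, 16 rose in both and rose more in KO, 2 fell in WT and rose in KO, and the others passed in 1 genotype. The median log2 response of the 97 was -2.14 in WT and -1.32 in KO. Among the 24 lower genes, 17 rose in both genotypes and rose less in KO, with a median response of 1.86 in WT and 1.47 in KO over the 24. A higher gene that fell in both genotypes must have fallen less in KO, and a lower gene that rose in both must have risen less. Which genotype moved further therefore follows from the sign of the difference and is no separate result. In 83 of the 97 KO lay below WT at rest and above it after stimulation, and in 20 of the 24 the reverse held. The difference is the stimulated effect minus the resting effect, so genes chosen by it favour opposite signs. Nothing is read from these 2 counts. KO and WT libraries did not overlap at rest for 88 of the 121 and in stimulated cells for 104, where 19.5% and 25.9% of all genes tested did not overlap (at rest 9.64% with KO above and 9.82% with KO below). A gene called in the difference had to separate in at least 1 of these comparisons, so nothing is read from those counts.

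Most genotype effects were called in only 1 of the 2 conditions, though the lists shared more genes than the background share. At rest 161 genes passed (0.922% of those tested) and in stimulated cells 219 (1.25%), and 13 genes were on both lists. Of the resting calls 8.07% also passed in stimulated cells, where 1.25% of all genes did. Of the stimulated calls 5.94% also passed at rest, where 0.922% of all genes did. Across all genes the genotype effects at rest and in stimulated cells, which share no library, had a Pearson r of -0.01. Of the 121 genes, 41 had a genotype effect at rest alone, 58 in stimulated cells alone, 2 in both with opposite signs and 20 in neither. These classes rest on 1 estimate of spread over all 12 libraries. When each condition was fitted with its own 6 libraries, 6 genes passed at rest and 719 in stimulated cells, and the 121 divided into 0 at rest alone, 77 in stimulated cells alone, 1 in both (Cxcr4) and 43 in neither. Genes described here by a resting effect are therefore called from the shared spread.

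**Figure D2:**
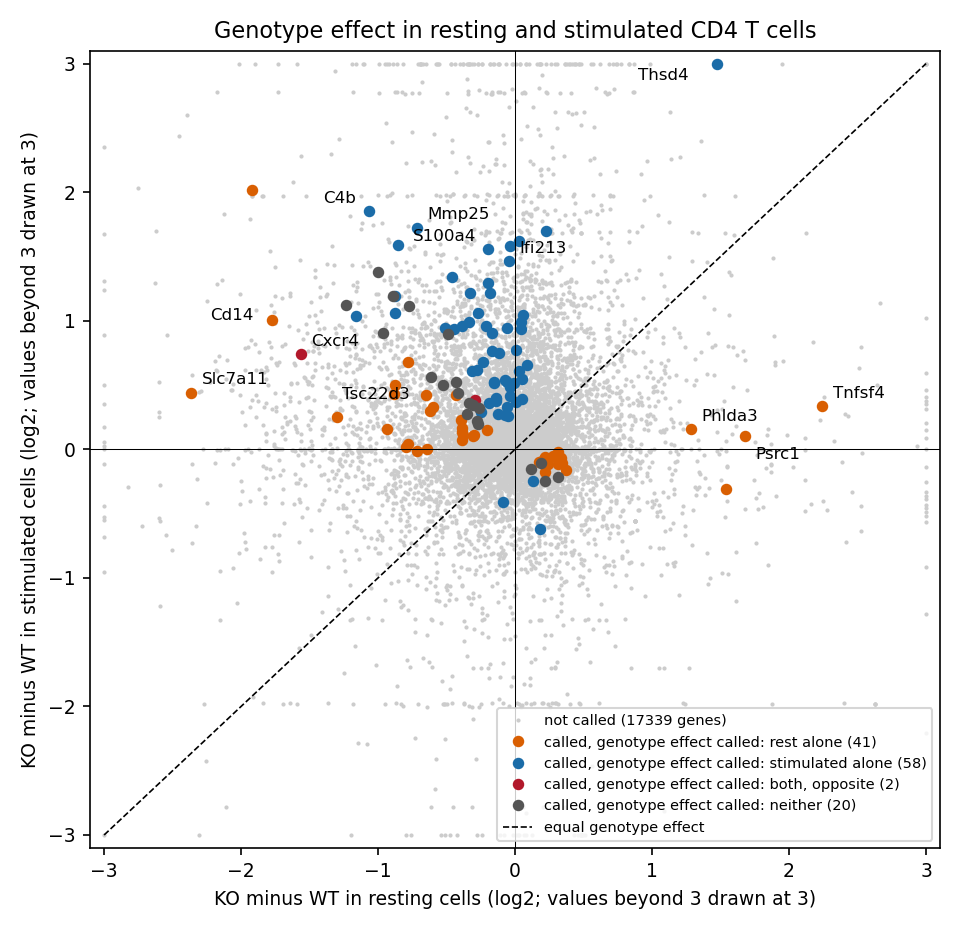
KO minus WT in resting cells (x axis, log2) against KO minus WT in stimulated cells (y axis, log2) for the 17460 genes tested, with the 121 called genes coloured by where the genotype effect passed. Genes on the dashed line have equal effects. At the upper left, where KO is lower at rest and higher after stimulation, sit 83 called genes, and 20 sit at the lower right. Choosing genes by the difference favours these positions.

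Cxcr4 and Dusp5 were the genes whose genotype effect passed in both conditions with opposite signs. Cxcr4, the receptor for the chemokine Cxcl12 that holds lymphocytes in bone marrow and lymphoid tissue, had the smallest p of all genes (chr1:128588199-128592293 in mm10, minus strand). It measured 112, 123 and 129 CPM in resting WT, 42.8, 40.5 and 40.1 in resting KO, 3.56, 3.75 and 3.6 in stimulated WT and 5.52, 5.55 and 7.12 in stimulated KO. All KO libraries were low at rest and high after stimulation, with no overlap in either condition. The KO to WT effect was -1.56 ± 0.08 at rest and 0.74 ± 0.09 in stimulated cells. Stimulation lowered Cxcr4 33.5-fold in WT and 6.78-fold in KO, a difference of 2.30 ± 0.12 (edgeR adjusted p = 4.6e-06, 6.4e-07 to 9.2e-05 with a library left out, 2.9e-05 with the myeloid covariate).

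Dusp5, a phosphatase that inactivates the kinase ERK in the nucleus, went the other way with stimulation. Its libraries measured 37.4, 38.6 and 40.2 CPM in resting WT, 33.2, 31.6 and 29.8 in resting KO, 79.9, 92.6 and 91.8 in stimulated WT and 113, 113 and 119 in stimulated KO. KO was below WT at rest and above it after stimulation, again without overlap, while both genotypes rose. The rise was 2.28-fold in WT against 3.65-fold in KO, a difference of 0.68 ± 0.09 (edgeR adjusted p = 0.011, 0.0046 to 0.047 with a library left out, 0.071 with the covariate). Its resting effect of -0.30 passed at adjusted p = 0.045 in the edgeR fit of all libraries and not in the 6 resting libraries alone, where the p was 0.17.

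Of the 13 genes with a genotype effect in both conditions, the other 11 kept the same sign, and none of those 11 was called in the difference. Beside Pkm they include the homing receptors S1pr1, which lets T cells leave lymph nodes, and Ccr7, which lets them enter. S1pr1 had a KO to WT effect of 0.48 ± 0.07 at rest and 0.42 ± 0.09 in stimulated cells, and Ccr7 of 0.28 ± 0.05 and 0.36 ± 0.05. Mbnl1, a splicing regulator, had 0.83 ± 0.06 and 0.77 ± 0.06. The differences of responses were -0.06 ± 0.11 for S1pr1, 0.09 ± 0.07 for Ccr7 and -0.06 ± 0.08 for Mbnl1 (edgeR adjusted p = 0.83, 0.6 and 0.77). Of these 3 homing receptors, Cxcr4 was the one called in the difference of responses.

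**Figure D3:**
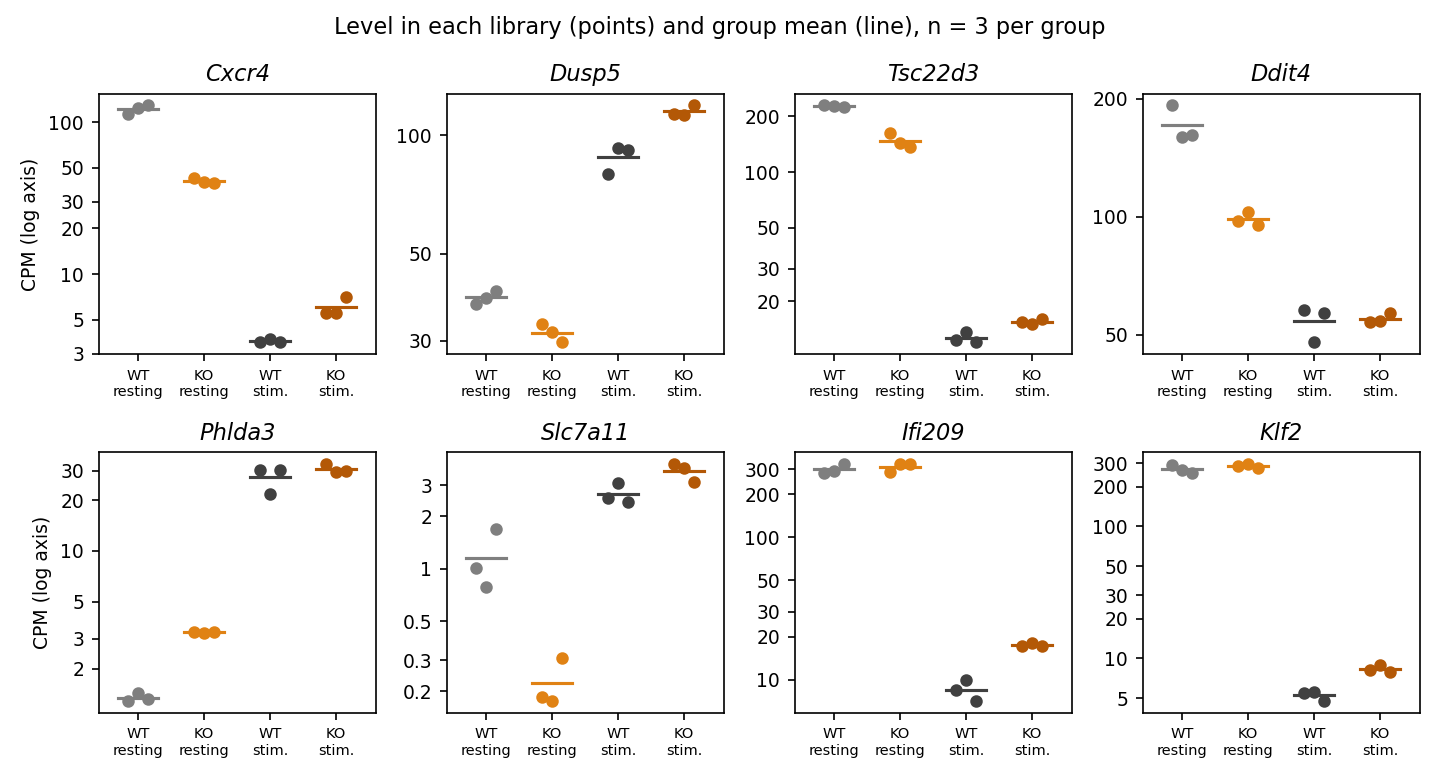
CPM (log axis) in each library (points) and group mean (line) of 8 called genes in resting and stimulated WT and KO cells, 3 libraries per group. Cxcr4 and Dusp5 are lower in KO at rest and higher after stimulation. Tsc22d3, Ddit4, Phlda3 and Slc7a11 differ more at rest, though Tsc22d3 and Slc7a11 also separate after stimulation. Ifi209 and Klf2 separate in stimulated cells.

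A group of genes differed more between genotypes at rest than after stimulation. Tsc22d3 (GILZ), which glucocorticoids and FOXO factors induce and which stimulation silences, measured 229, 228 and 226 CPM in resting WT, 162, 144 and 137 in resting KO, 12.3, 13.6 and 12 in stimulated WT and 15.4, 15.2 and 16.1 in stimulated KO. KO was low at rest and slightly high after stimulation, without overlap in either condition. In edgeR fits of 6 libraries Tsc22d3 passed in stimulated cells (adjusted p = 0.023) and not at rest (adjusted p = 0.073). Its effect was -0.62 ± 0.06 at rest and 0.30 ± 0.07 in stimulated cells, with a difference of 0.92 ± 0.09 (edgeR adjusted p = 0.0021, 0.00019 to 0.017 with a library left out, 0.046 with the covariate). Ddit4 (REDD1), an inhibitor of mTORC1 that stress induces, measured 192, 160 and 162 CPM in resting WT, 97.3, 103 and 95.5 in resting KO, 58, 47.9 and 56.8 in stimulated WT and 53.8, 54.3 and 56.9 in stimulated KO. Stimulation lowered it 3.16-fold in WT and 1.79-fold in KO, to levels that overlapped. The difference was 0.82 ± 0.11 (edgeR adjusted p = 0.015), and the call was lost without stimulated KO replicate 3 (adjusted p = 0.054) and with the covariate (value 0.73, adjusted p = 0.16).

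Slc7a11 and Srxn1, 2 genes of the defence against oxidants, were lower in resting KO. Slc7a11, the cystine importer that feeds glutathione synthesis, measured 1.01, 0.789 and 1.68 CPM in resting WT, 0.186, 0.176 and 0.309 in resting KO, 2.53, 3.08 and 2.42 in stimulated WT and 3.98, 3.79 and 3.12 in stimulated KO. Resting KO libraries were the lowest of all, and stimulated KO libraries the highest. Its response was a 2.3-fold rise in WT and a 16.1-fold rise in KO, a difference of 2.81 ± 0.41 (edgeR adjusted p = 0.015, 0.006 to 0.05 with a library left out, 0.074 with the covariate). Srxn1, sulfiredoxin, which repairs oxidised peroxiredoxins, measured 4.49, 3.27 and 2.53 CPM in resting WT, 2.0, 1.64 and 1.93 in resting KO, 6.51, 6.65 and 5.74 in stimulated WT and 9.09, 8.31 and 8.12 in stimulated KO. Its difference was 1.32 ± 0.25 (edgeR adjusted p = 0.035), it passed in 3 of 12 fits with a library left out, and with the covariate it was 0.51 at adjusted p = 0.51. In the list of 18 oxidative stress and glutathione genes these 2 passed, 16 lay above 0, and the median was 0.11 (-0.01 over all genes; -0.02 with the covariate). In the 23 genes of the integrated stress response, Slc7a11 and Ddit4 passed, 13 lay above 0 and the median was 0.05.

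Immediate early genes, whose transcripts appear within minutes of a signal or of handling, contributed 4 higher genes of 24 tested and no lower one, with 18 above 0 and a median of 0.18. Of all genes tested, 0.556% were called higher and 48.6% lay above 0. Dusp1, a phosphatase for p38 and JNK, measured 29.6, 21.9 and 20 CPM in resting WT, 15.9, 14.9 and 14.7 in resting KO, 8.5, 8.16 and 8.62 in stimulated WT and 11.4, 11.1 and 11.4 in stimulated KO. WT exceeded KO at rest, most in replicate 1, and KO exceeded WT after stimulation. Its difference was 1.08 ± 0.16 (edgeR adjusted p = 0.015), lost without stimulated KO replicate 3 (adjusted p = 0.061) and with the covariate (0.24). Fos, an AP-1 subunit, measured 16.2, 11.5 and 9.46 CPM in resting WT, 6.05, 6.65 and 6.74 in resting KO, 5.76, 6.05 and 6.55 in stimulated WT and 6.45, 6.99 and 7.09 in stimulated KO, so that resting WT was high and uneven while the other groups were close. Its difference of 1.09 ± 0.22 (edgeR adjusted p = 0.047) passed in 2 of 12 fits with a library left out. Fosb (0.96) and Nr4a1 (0.50), the latter a reporter of receptor signal strength, passed in 1 of 12 and 4 of 12 such fits. Resting WT also held the widest range of summed myeloid markers (2065 to 6324 CPM), whose part in these values was not tested, and with the covariate the differences were 0.36 for Fos, 1.00 for Fosb and 0.42 for Nr4a1.

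Many heat shock chaperones, which fold proteins under stress, were lower at rest in KO. Of 21 tested, 10 passed as lower in resting cells in the fit of all libraries, as did 92 of all 17460 genes. Among the 10 were Hspa1a (-1.20), Dnajb1 (-1.12), Hsph1 (-0.71) and Hspa8 (-0.46), and none of the 21 passed in stimulated cells. The median KO to WT effect was -0.33 at rest and -0.02 in stimulated cells. In the difference of responses 17 of 21 lay above 0 with a median of 0.36, and 1 passed. That gene, Bag3, a cochaperone of Hsp70, measured 13.1, 14.6 and 14.7 CPM in resting WT, 10.1, 8.91 and 8.02 in resting KO, 12.2, 13.5 and 13.5 in stimulated WT and 13.7, 12.3 and 13.2 in stimulated KO. Its effect was -0.65 at rest and near 0 after stimulation, its difference 0.65 ± 0.13 (edgeR adjusted p = 0.043), and it passed in 4 of 12 fits with a library left out. Over 23 settings the list's median stayed between 0.21 and 0.66.

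Further genes with a resting effect encode signals between cells and their regulators. Tnfsf9 (4-1BB ligand), a costimulatory ligand, measured 3.15, 3.21 and 4.01 CPM in resting WT, 1.28, 1.52 and 1.42 in resting KO, 4.96, 6.05 and 6.68 in stimulated WT and 6.99, 7.06 and 7.01 in stimulated KO. Resting KO was low by -1.30, stimulated libraries lay close together, and the difference was 1.55 ± 0.20 (edgeR adjusted p = 0.011, 0.0048 to 0.047 with a library left out, 0.048 with the covariate). Tnfsf4 (OX40 ligand) showed the reverse. It measured 0.265, 0.291 and 0.411 CPM in resting WT, 1.19, 1.57 and 1.83 in resting KO, 11.9, 7.47 and 11.7 in stimulated WT and 12.5, 12.6 and 14.1 in stimulated KO, high in resting KO, and its difference was -1.91 ± 0.31 (edgeR adjusted p = 0.018). It passed in 5 of 12 fits with a library left out, and with the covariate the value was -0.91 (adjusted p = 0.4). Tgif1, a corepressor of TGF-beta signalling, had a difference of 0.55 ± 0.07 and Siah2, a ubiquitin ligase of the hypoxia pathway, of 0.70 ± 0.10 (edgeR adjusted p = 0.011 and 0.015). Siah2 measured 14.1, 16.4 and 17.6 CPM in resting WT, 9.31, 10 and 9.98 in resting KO, 33.5, 37.1 and 35.1 in stimulated WT and 34.7, 34.2 and 36.1 in stimulated KO, low in resting KO and overlapping after stimulation. Tigit, an inhibitory receptor, was the called member of 36 T cell activation genes (0.49 ± 0.09, adjusted p = 0.035 by edgeR, 4 of 12 fits with a library left out).

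Phlda3 and Psrc1, both induced by p53, had 2 of the larger lower differences. Phlda3 (chr1:135766119-135769136), an inhibitor of the kinase AKT, measured 1.29, 1.43 and 1.32 CPM in resting WT, 3.3, 3.24 and 3.31 in resting KO, 30.4, 21.9 and 30.3 in stimulated WT and 32.9, 29.4 and 29.9 in stimulated KO. The 3 resting KO libraries agreed closely and lay far above WT, while stimulated libraries overlapped. Stimulation raised it 20.5-fold in WT and 9.37-fold in KO, a difference of -1.13 ± 0.16 (edgeR adjusted p = 0.015, 0.00037 to 0.05 with a library left out). Psrc1, a microtubule-binding protein, measured 1.35, 1.05 and 1.06 CPM in resting WT, 4.4, 3.04 and 3.68 in resting KO, 36.8, 26.7 and 38.3 in stimulated WT and 37.5, 35 and 36.9 in stimulated KO, with a difference of -1.57 ± 0.23 (edgeR adjusted p = 0.016, lost without resting WT replicate 2, stimulated KO replicate 2 or stimulated KO replicate 3, at up to 0.061). With the covariate the differences were -0.67 for Phlda3 and -1.27 for Psrc1 (adjusted p = 0.3 and 0.28). The list of 21 p53 targets did not move together: Phlda3 passed as lower and Gadd45b, a stress sensor, as higher (0.63 ± 0.12, edgeR adjusted p = 0.041), 10 lay above 0 and the median was -0.01.

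The other large group differed after stimulation, and interferon-stimulated genes led it. Promoters of 4 called genes of the interferon list are shown because they carry the response element, searched as GAAANNGAAA on both strands, in windows of 300 bases from 250 before to 50 after the transcription start (RefSeq, GRCm38.p6). Capitals mark the match, and overlapping matches run together.
Isg15 (chr4:156200769-156201068, minus strand): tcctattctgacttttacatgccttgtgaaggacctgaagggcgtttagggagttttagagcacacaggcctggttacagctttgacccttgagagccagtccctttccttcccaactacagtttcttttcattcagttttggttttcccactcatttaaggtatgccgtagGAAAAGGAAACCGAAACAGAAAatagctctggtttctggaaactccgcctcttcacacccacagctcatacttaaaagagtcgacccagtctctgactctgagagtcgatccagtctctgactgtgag
Oas1a (chr5:120907476-120907775, minus strand): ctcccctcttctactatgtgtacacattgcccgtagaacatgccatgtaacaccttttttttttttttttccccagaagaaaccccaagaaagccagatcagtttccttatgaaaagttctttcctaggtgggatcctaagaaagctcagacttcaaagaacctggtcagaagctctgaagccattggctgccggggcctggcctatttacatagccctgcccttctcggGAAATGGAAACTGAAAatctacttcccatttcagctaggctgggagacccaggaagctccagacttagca
Ifi213 (chr1:173599223-173599522, minus strand): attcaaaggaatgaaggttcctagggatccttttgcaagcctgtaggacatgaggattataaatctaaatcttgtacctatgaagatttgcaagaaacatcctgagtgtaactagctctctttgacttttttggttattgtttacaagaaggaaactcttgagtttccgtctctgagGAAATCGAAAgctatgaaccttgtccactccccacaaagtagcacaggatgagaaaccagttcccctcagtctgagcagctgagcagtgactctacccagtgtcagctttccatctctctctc
Gbp3 (chr3:142559794-142560093, plus strand, match on the opposite strand): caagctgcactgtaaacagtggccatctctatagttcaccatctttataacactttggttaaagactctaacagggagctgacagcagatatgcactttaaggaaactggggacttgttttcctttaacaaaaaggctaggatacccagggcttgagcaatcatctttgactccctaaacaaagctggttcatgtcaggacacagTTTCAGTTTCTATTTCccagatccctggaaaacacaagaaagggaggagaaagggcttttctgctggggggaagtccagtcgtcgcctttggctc

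Isg15 held 3 overlapping matches, Oas1a and Gbp3 held 2 each and Ifi213 held 1. Of 50 interferon response genes tested, 39 had a promoter in the table and 25 of these (64.1%) held the motif, where 1079 of all 27025 genes in the table (3.99%) and 3.44% of all 32851 promoters did. A second window of Gbp3, at chr3:142560106-142560405, held no match. Windows of Oasl1, Ifi209 and Samd9l held no match, and Mx1 and Dhx58 were not matched to the table. A match describes the letters in this window and shows no binding.

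In the interferon list 9 of 50 genes passed as higher and none as lower, 49 lay above 0, and the median difference was 0.61, where over all genes 48.6% lay above 0 and the median was -0.01. The list's median KO to WT effect was -0.12 at rest and 0.54 in stimulated cells, with 20 genes called higher and none lower after stimulation and 1 called lower at rest. In stimulated cells every KO library lay above every WT library for 33 of the 50, as it did for 12.8% of all genes. Stimulation lowered most of these genes, 41 passing as lower in WT and 40 in KO, with a median response of -2.25 for WT against -1.48 for KO. Its median difference stayed between 0.47 and 0.73 over 23 settings, the lower end with the myeloid covariate, while the number called ran from 0 to 38.

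Among single members, Ifi209 (chr1:173630917-173647928), a DNA sensor of the p200 family, measured 284, 292 and 326 CPM in resting WT, 287, 328 and 325 in resting KO, 8.41, 10 and 7.08 in stimulated WT and 17.2, 18.1 and 17.3 in stimulated KO. Resting libraries of the genotypes overlapped, and every stimulated KO library lay well above WT. Stimulation lowered it 35.4-fold in WT and 17.9-fold in KO, a difference of 0.98 ± 0.14 (edgeR adjusted p = 0.015, lost without stimulated KO replicate 2 at 0.052). Ifi213, of the same family, measured 155, 168 and 180 CPM in resting WT, 151, 163 and 173 in resting KO, 1.76, 2.19 and 1.11 in stimulated WT and 4.63, 4.67 and 4.62 in stimulated KO and differed by 1.51 ± 0.21 (edgeR adjusted p = 0.016). Its fall was 99.3-fold in WT against 35-fold in KO. It passed in 9 of 12 fits with a library left out. Near-identical relatives in this family can share reads, so their counts carry some uncertainty.

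Further called members of the list were Mx1, Oasl1, Isg15, Gbp3, Oas1a, Dhx58 and Samd9l. Mx1, a GTPase that blocks viral nucleocapsids, measured 16.9, 15.8 and 13.9 CPM in resting WT, 11.8, 14.2 and 14.6 in resting KO, 0.814, 1.00 and 0.82 in stimulated WT and 1.72, 2.67 and 2.04 in stimulated KO, with a difference of 1.49 ± 0.22 (edgeR adjusted p = 0.015, lost without stimulated KO replicate 3 at 0.05). Oasl1, a member of the oligoadenylate synthetase family, measured 11.9, 11.2 and 11.2 CPM in resting WT, 9.92, 11.4 and 12.1 in resting KO, 1.1, 1.67 and 0.942 in stimulated WT and 3.49, 4.47 and 3.13 in stimulated KO and differed by 1.62 ± 0.26 (edgeR adjusted p = 0.018, 10 of 12 fits with a library left out). Isg15, a ubiquitin-like modifier, measured 21, 19.8 and 19.6 CPM in resting WT, 12.5, 16.2 and 15.6 in resting KO, 3.9, 6.7 and 3.77 in stimulated WT and 8.81, 10.1 and 8.53 in stimulated KO. KO was below WT at rest and above it after stimulation, and its difference of 1.38 ± 0.27 (edgeR adjusted p = 0.048) passed in 2 of 12 such fits. Gbp3, a GTPase that interferon gamma induces, rose on stimulation in both genotypes, its genotype effect was called at rest (-0.39) and not in stimulated cells, and its difference was 0.62 ± 0.10. The differences of the other 3 members were 1.33 for Oas1a, 1.07 for Dhx58, a cytosolic RNA sensor, and 0.89 for Samd9l, a translation inhibitor. With the covariate none of the 9 passed, and the values were 0.99 for Ifi209, 1.59 for Ifi213, 1.03 for Mx1, 1.14 for Oasl1, 0.83 for Isg15 and 0.94 for Samd9l.

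Other genes that interferon is known to induce were called outside the list. Parp12, an antiviral ADP-ribosyltransferase, measured 25.8, 21.7 and 22.6 CPM in resting WT, 18.5, 19.7 and 19.6 in resting KO, 5.09, 4.95 and 4.27 in stimulated WT and 7.29, 7.5 and 7.12 in stimulated KO and differed by 0.89 ± 0.12 (edgeR adjusted p = 0.014, 0.0052 to 0.047 with a library left out). Uba7, the enzyme that activates Isg15, differed by 0.57 ± 0.10, the ubiquitin ligase Herc6, which attaches Isg15, by 0.54 ± 0.09, the large ligase Rnf213 by 0.58 ± 0.11, Trim34a by 0.67 ± 0.10 and Trim5 by 0.77 ± 0.13. Each of these had a genotype effect called in stimulated cells and not at rest, between 0.50 and 0.78. Cd1d1, which presents lipids to NKT cells, measured 55.6, 47.9 and 45 CPM in resting WT, 44.1, 46 and 46.8 in resting KO, 2.52, 2.49 and 2.37 in stimulated WT and 3.95, 4.11 and 4.33 in stimulated KO, with overlapping resting libraries and separate stimulated ones, and a difference of 0.86 ± 0.11 (edgeR adjusted p = 0.011, 0.0011 to 0.047 with a library left out, 0.092 with the covariate). The nonclassical class I genes H2-Q6 (0.67 ± 0.09), H2-Q5 (0.61 ± 0.10) and H2-Q2 (1.89 ± 0.32) were called higher, but they are near-identical copies between which reads may be split.

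Several genes that mark quiescent cells fell less far in KO. Klf2 (chr8:72319033-72321656), the transcription factor of the naive homing program, measured 292, 266 and 255 CPM in resting WT, 289, 298 and 278 in resting KO, 5.5, 5.6 and 4.77 in stimulated WT and 8.12, 8.97 and 7.91 in stimulated KO. Resting libraries overlapped, and all stimulated KO libraries lay above WT. Klf2 fell 51.2-fold in WT and 34.6-fold in KO, a difference of 0.57 ± 0.10 (edgeR adjusted p = 0.028), which passed in 3 of 12 fits with a library left out (adjusted p up to 0.088). Ypel3 and Ypel5, small proteins linked to growth arrest, differed by 0.53 ± 0.08 and 0.54 ± 0.07 (edgeR adjusted p = 0.015 and 0.015). Ypel3 measured 146, 152 and 146 CPM in resting WT, 144, 141 and 157 in resting KO, 5.26, 5.71 and 5.13 in stimulated WT and 7.72, 7.4 and 7.96 in stimulated KO, overlapping at rest and apart after stimulation. Txnip, an inhibitor of thioredoxin and of glucose uptake, measured 682, 645 and 747 CPM in resting WT, 605, 582 and 542 in resting KO, 32.1, 28.1 and 31.9 in stimulated WT and 35.9, 40 and 38.9 in stimulated KO and differed by 0.58 ± 0.10 (edgeR adjusted p = 0.027, 6 of 12 fits with a library left out). Tcp11l2 fell 31.8-fold in WT and 22.5-fold in KO, a difference of 0.50 ± 0.07 (edgeR adjusted p = 0.015). Crebrf (0.34) was also higher.

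Over all genes tested 0.556% were called higher. The list of 34 quiescence and homing genes held 6 higher genes (Cxcr4, Tsc22d3, Txnip, Klf2, Ypel5 and Ypel3) and no lower one. Its direction was not shared by all members: 16 lay above 0, the median was -0.01, and across settings it ran from -0.06 to 0.23. In the list, S1pr1 and Ccr7 differed by -0.06 and 0.09.

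Genes of effector and memory T cells had a median difference of 0.61 over 30 tested. Of these genes 26 lay above 0 (48.6% of all genes), 4 were called higher (0.556% of all genes) and none lower. Their median KO to WT effect was -0.15 at rest and 0.51 in stimulated cells. S100a4, a calcium-binding protein of experienced T cells, measured 42.6, 42 and 48.6 CPM in resting WT, 34.1, 44.1 and 37.9 in resting KO, 0.588, 1.02 and 1.14 in stimulated WT and 2.35, 2.7 and 3.01 in stimulated KO. Resting libraries overlapped, and the stimulated KO libraries exceeded all WT libraries. It fell 48.6-fold in WT and 14.4-fold in KO, a difference of 1.76 ± 0.25 (edgeR adjusted p = 0.016, lost without stimulated KO replicate 2 or 3 at up to 0.06, and 1.89 at adjusted p = 0.092 with the covariate). S100a6 differed by 0.91 ± 0.15 and its membrane partner Anxa2 by 0.92 ± 0.14 (edgeR adjusted p = 0.02 and 0.018), passing in 7 of 12 and 9 of 12 fits with a library left out. The fourth, Maf, a factor of helper T cells and macrophages, measured 159, 120 and 101 CPM in resting WT, 65.7, 70.1 and 71.5 in resting KO, 9.36, 8.41 and 8.54 in stimulated WT and 11.1, 10.7 and 15.4 in stimulated KO. It was uneven in resting WT, in the order of the myeloid markers, its difference was 1.38 ± 0.25 (edgeR adjusted p = 0.043), and it passed in 2 of 12 such fits. With the covariate the list's median was 0.21.

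Trdc and Klrc2 were also called, and of the 12 NK cell markers none passed in the difference by edgeR (4 at an unadjusted p under 0.05). Trdc, the constant segment of the gamma-delta receptor, measured 10.4, 10.2 and 12.4 CPM in resting WT, 10.9, 11 and 11.9 in resting KO, 2.19, 2.59 and 2.51 in stimulated WT and 3.95, 5.09 and 5.43 in stimulated KO, with overlapping resting libraries and higher stimulated KO libraries (0.95 ± 0.18, edgeR adjusted p = 0.035, 4 of 12 fits with a library left out). Klrc2, a receptor of NK and memory T cells, differed by 1.40 ± 0.26. Summed gamma-delta markers (6 genes) ran from 57.4 to 64.7 CPM in resting WT, 55.3 to 61.5 in resting KO, 9.49 to 13.3 in stimulated WT and 17.0 to 17.8 in stimulated KO. Of these 6 genes 5 lay above 0 and Trdc alone passed. Whether cells of this kind account for part of the stimulated differences was not tested.

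Thsd4, a matrix protein gene, had the largest absolute difference of all called genes. Raw counts were 11, 8 and 17 in resting WT, 29, 36 and 42 in resting KO, 0, 2 and 0 in stimulated WT and 104, 99 and 106 in stimulated KO. KO exceeded WT in both conditions without overlap, and the fitted value of 5.56 ± 0.76 (edgeR adjusted p = 0.015) depends on the near absence of counts in stimulated WT, running from 5.04 to 8.37 with a library left out. The gene lies at chr9:59966931-60522046 (mm10), 287.6 kb beyond the end of Pkm, and no other called gene was nearer to Pkm on chromosome 9 than Anxa2, at 9774 kb.

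A set of higher genes are known from myeloid cells. Cd14, the lipopolysaccharide coreceptor, measured 26.1, 12.1 and 8.44 CPM in resting WT, 4.34, 4.67 and 4.66 in resting KO, 0.422, 0.476 and 0.471 in stimulated WT and 0.744, 1.13 and 0.869 in stimulated KO. Its 3 resting WT values fall in the order of the myeloid markers, and both conditions separate without overlap. C4b, a complement component, measured 15.2, 10.8 and 14.4 CPM in resting WT, 6.16, 6.21 and 6.91 in resting KO, 0.181, 0.333 and 0.182 in stimulated WT and 0.777, 1.26 and 0.48 in stimulated KO, and Mmp25, a membrane protease of leukocytes, measured 4.6, 5.23 and 7.53 CPM in resting WT, 2.92, 3.23 and 4.41 in resting KO, 0.527, 0.809 and 0.866 in stimulated WT and 2.69, 2.11 and 2.49 in stimulated KO. For these 3 genes KO was low at rest and high after stimulation. The resting WT values of Mmp25 ran in the reverse of the order of the myeloid markers, and those of C4b followed neither order. An order of 3 libraries cannot tell whether other cells have a part in these values, which was not tested. The fitted effects of the myeloid marker list lay below 0 at rest for 20 of 20 genes and above 0 after stimulation for 19 of 20. Differences were 2.77 ± 0.53 for Cd14, 2.92 ± 0.44 for C4b and 2.44 ± 0.34 for Mmp25 (edgeR adjusted p = 0.049, 0.016 and 0.015). With the myeloid covariate they were 0.87, 2.44 and 2.91 (edgeR adjusted p = 0.36, 0.15 and 0.046). Cd14 is itself among the 20 genes averaged in that covariate, so its smaller value is partly built in and nothing is read from it. C4b and Mmp25 are not among the 20.

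Further genes known from myeloid or dendritic cells were also called higher in the difference. They were the potassium channel Kcnk13 (3.94, 1.73 with the covariate), the receptor RANK, Tnfrsf11a (2.44, 1.15), the chemerin receptor Cmklr1 (2.38, 0.84), the membrane protein Ms4a6d (2.07, 1.61), complement factor B, Cfb (1.94, 1.24), and the lectin Clec4e (1.87, 1.35). Kcnk13 had raw counts of only 4, 4 and 1 in stimulated WT and 8, 15 and 15 in stimulated KO, and it passed in 3 of 12 fits with a library left out. Tnfrsf11a, Cmklr1, Ms4a6d, Cfb and Clec4e passed in 6, 3, 10, 11 and 5 of those fits. Il15, a cytokine that myeloid cells present to T cells, measured 3.58, 2.16 and 1.92 CPM in resting WT, 1.0, 1.1 and 1.15 in resting KO, 0.588, 0.936 and 0.638 in stimulated WT and 1.52, 1.26 and 1.92 in stimulated KO (2.35, 1.29). Ccl17, a chemokine of dendritic cells, rose on stimulation in both genotypes and measured 0.101, 0.152 and 0.172 CPM in resting WT, 0.0372, 0.0628 and 0.0867 in resting KO, 2.08, 2.49 and 1.73 in stimulated WT and 4.92, 4.02 and 4.0 in stimulated KO (2.2, 2.25). None of these 8 genes passed with the covariate. Il15 and Ccl17 passed in 8 and 4 of the 12 fits with a library left out. Ccl17 had raw counts of only 8, 11 and 13 in resting WT and 3, 5 and 7 in resting KO. Whether other cells have a part in the values of these genes was not tested. The covariate takes its values from the same libraries, so it can also remove a genotype effect that moves with the markers.

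Genes of the lower direction were mostly induced by stimulation, less in KO. Lss, an enzyme of cholesterol synthesis, was called. It measured 20.2, 20.4 and 22.9 CPM in resting WT, 24.2, 25.4 and 23.9 in resting KO, 91, 81 and 93 in stimulated WT and 75.3, 72.5 and 75.1 in stimulated KO. KO lay above WT at rest and below it after stimulation without overlap. Lss rose 4.18-fold in WT against 3.03-fold in KO, a difference of -0.47 ± 0.09 (edgeR adjusted p = 0.032), and it passed in 3 of 12 fits with a library left out. All 24 genes of cholesterol synthesis and uptake lay below 0, with a median of -0.20 that ran from -0.28 to -0.14 over 23 settings, and after stimulation every KO library lay below every WT library for 17 of the 24, as it did for 13.1% of all genes. Cyp51 (-0.26) and Fdps (-0.25), also of this list, passed as lower in stimulated cells.

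Cell cycle and growth genes were induced less in KO in sign, but few passed. Kif20b, a mitotic kinesin, rose 6.88-fold in WT and 5.21-fold in KO (-0.40 ± 0.07), Haus2, a spindle protein, 3.27-fold and 2.54-fold (-0.36 ± 0.07), and Fbxo5, an inhibitor of the anaphase-promoting complex, 7.14-fold and 5.67-fold (-0.33 ± 0.06; edgeR adjusted p = 0.027, 0.038 and 0.037). They passed in 4, 3 and 3 of 12 fits with a library left out. In the lists, none of 30 mitosis, 30 DNA replication or 30 ribosome biogenesis genes passed, and 0, 3 and 0 of them lay above 0, with medians of -0.29, -0.17 and -0.16. The mitosis median turned to 0.36 without resting KO replicate 1 and ran down to -0.61 with the covariate, and that of DNA replication turned to 0.05 without the resting replicate 1 libraries of both genotypes. The ribosome biogenesis median stayed below 0, between -0.23 and -0.01. Resting levels of cycling genes were uneven. Mki67, a marker of cycling cells, measured 38.9 ± 11.1 CPM in resting WT and 49.7 ± 43.4 in resting KO (SD, n = 3).

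The other lower genes included Cnn3, an actin-binding protein, which measured 36.9, 37.8 and 38.7 CPM in resting WT, 41.7, 44.9 and 45.1 in resting KO, 110, 115 and 108 in stimulated WT and 98.8, 100 and 96.7 in stimulated KO and differed by -0.39 ± 0.06 (edgeR adjusted p = 0.016, 0.0069 to 0.05 with a library left out). Tet1, an enzyme that oxidises methylated DNA, fell on stimulation in both genotypes and fell further in KO. It measured 19.8, 25.7 and 25.5 CPM in resting WT, 27.4, 26.5 and 26.6 in resting KO, 6.13, 4.75 and 5.01 in stimulated WT and 3.16, 3.66 and 3.54 in stimulated KO, with a difference of -0.80 ± 0.16 (edgeR adjusted p = 0.048, 3 of 12 fits with a library left out). Paqr7, a membrane progesterone receptor, likewise fell further (-0.37 ± 0.07, 3 of 12 such fits). The oxidoreductase Dhrs13 (-0.45) and the antisense transcript Gimap1os (-0.53) complete the larger lower differences. Gimap1os overlaps the Gimap locus, and no source used here says if reads were counted by strand.

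Lists of central carbon and energy metabolism, the subject of the study's title, held no called member, which at 0.693% of all genes called is near the background. None of 23 glycolysis genes (a list without Pkm), 17 genes of pyruvate oxidation and use, 19 genes of the tricarboxylic acid cycle, 42 nuclear subunits of oxidative phosphorylation or 13 mitochondrially encoded genes passed in the difference of responses by edgeR, with 2, 5, 2, 0 and 3 at an unadjusted p under 0.05. Median differences were -0.03, -0.06, -0.05, -0.03 and 0.10. Across settings glycolysis ran from -0.11 to 0.06 and so had no stable sign, while pyruvate oxidation and use stayed between -0.12 and -0.05. Pdk1, the kinase that shuts pyruvate dehydrogenase, measured 272, 286 and 329 CPM in resting WT, 330, 352 and 335 in resting KO, 123, 110 and 118 in stimulated WT and 105, 110 and 99.4 in stimulated KO, with a difference of -0.36 ± 0.10 (edgeR adjusted p = 0.11). Pdha1, the catalytic subunit of that enzyme, differed by -0.21 ± 0.09 and Ldha, lactate dehydrogenase A, by -0.06 ± 0.08 (edgeR adjusted p = 0.28 and 0.76). The median KO to WT effect over the glycolysis genes was -0.07 at rest and -0.13 in stimulated cells. After stimulation every KO library lay below every WT library for 14 of 23 glycolysis genes, as for 13.1% of all genes. The same held for 7 of 17, 12 of 19, 21 of 42 and 0 of 13 genes of the other lists, in the order above. Every KO library lay above every WT library for 0 genes of each list, against 12.8% of all genes. Serine, one-carbon and nucleotide synthesis genes had 2 of 29 above 0 and a median of -0.15, which was 0.04 with the covariate.

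Genes of survival and death, also named in the title, gave 1 call, where 0.693% of all genes tested were called. None of 12 apoptosis-promoting genes of the BCL2 family and none of 14 apoptosis-opposing genes passed by edgeR (2 and 4 at an unadjusted p under 0.05), with medians of 0.00 and 0.06. Mcl1, a BCL2 relative that T cells need, measured 693, 685 and 714 CPM in resting WT, 570, 597 and 561 in resting KO, 402, 434 and 398 in stimulated WT and 416, 424 and 404 in stimulated KO. Resting KO was low without overlap and stimulated libraries overlapped, with a difference of 0.29 ± 0.07 (edgeR adjusted p = 0.075). Bax, a pore-forming executioner, differed by 0.01 ± 0.06. Among 22 death receptors and caspases Tnfrsf1b, the second TNF receptor, passed as higher. It measured 172, 154 and 150 CPM in resting WT, 124, 135 and 135 in resting KO, 79.9, 91.1 and 85.2 in stimulated WT and 94.2, 95.5 and 104 in stimulated KO and differed by 0.47 ± 0.09 (edgeR adjusted p = 0.04, 3 of 12 fits with a library left out).

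**Figure D4:**
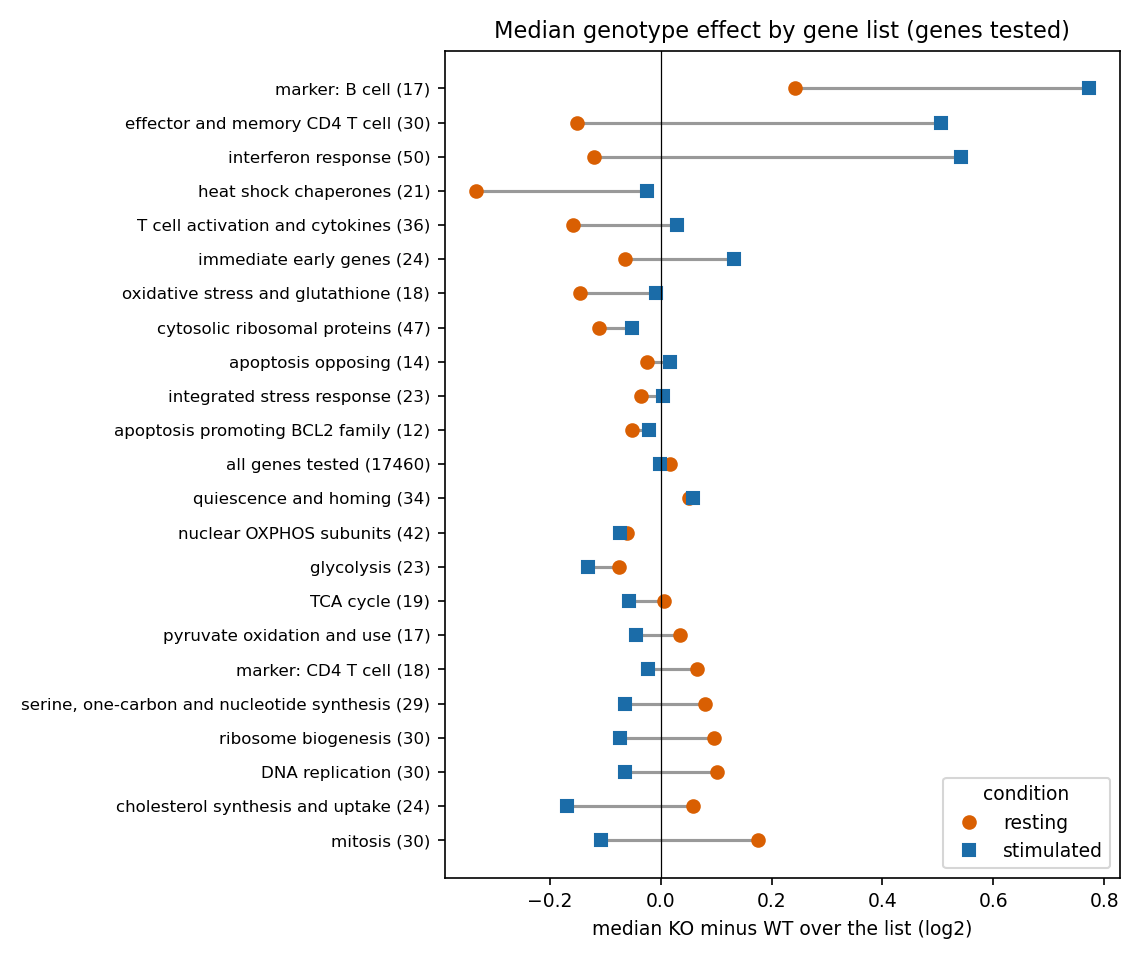
Median KO minus WT effect (log2) at rest (circles) and in stimulated cells (squares) over the tested genes of each list, number of genes in brackets, ordered by the median difference. Interferon response genes move from -0.12 to 0.54 and mitosis genes from 0.18 to -0.11. Glycolysis genes lie at -0.07 and -0.13, nuclear subunits of oxidative phosphorylation at -0.06 and -0.07, and all genes at 0.02 and -0.0007.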

How the data were processed

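Messenger RNA of mouse CD4 T cells was measured in 12 libraries, 3 each of resting WT, resting KO, stimulated WT and stimulated KO, grouped by their titles. The authors deposited RSEM expected counts, which are estimates and can be fractional, in 1 table per condition and without normalization. Per the labels' protocols the libraries were made from polyadenylated RNA with a stranded ligation kit. Named in the submitters' processing notes, without roles, are STAR 2.7.0f, RSEM 1.3.1, cutadapt 1.18, bcl2fastq 2.20 and mm10. No source used here says how strand entered the counting. Overlapping genes and near-identical copies are therefore uncertain. The labels give the culture time also as overnight and the source both as splenocytes and as spleen with lymph nodes.

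The 2 tables were joined by gene identifier, and the deposited expected counts were rounded. All 55450 identifiers matched GENCODE M21, which gave symbols and coordinates counted from 1. Totals ran from 63266477 to 76891786 counts per library, and replicates of a group differed by more than sampling noise (chi-square per degree of freedom 3.97 to 142.8). Genes were kept by filterByExpr (at least 10 counts in a library and 15 in all), normalized with TMM factors and tested with the robust quasi-likelihood F-test of edgeR 4.0.16 (limma 3.58.1, R 4.3.3) in 1 fit of 4 group means over 12 libraries with 8 residual degrees of freedom, Benjamini-Hochberg adjustment and a threshold of 0.05. Levels are CPM by TMM-scaled library size. In simulated counts the test of the difference of responses called 49 of 50 and 50 of 50 genes changed by a log2 of -2 and 2, 37 of 50 and 36 of 50 changed by -1 and 1, and 8 of 16963 unchanged ones.

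Named genes are Pkm, up to 12 per direction with the largest difference among called genes with at least 3 CPM and no overlap of genotypes in a condition, up to 4 called members per list (or the 2 most abundant), and up to 4 per class of genotype effect with the smallest p; predicted genes, pseudogenes and receptor segments were left out. Any other gene named was chosen with its values in view. The members and the 40 gene lists were chosen with earlier results of these data known. A symbol with several identifiers was taken at its highest mean. Promoter sequences are from RefSeq (GRCm38.p6).

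Alternatives were DESeq2 1.42.0 size factors and its Wald test, no filter, a stricter filter (1 CPM in 3 libraries per condition), a non-robust fit, limma voom with library weights, the replicate number as a block, a myeloid marker covariate, fits of 6 libraries, and each library left out in turn. Leaving out both resting replicate 1 libraries was added after seeing the data. Values of some called genes are not reported here.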

Additional observations from a re-analysis of the deposited data

Results flagged for a closer look

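The genotype effect differed between resting and stimulated cells, by the test of the difference itself, for 121 genes (edgeR quasi-likelihood test, 12 libraries). Cxcr4 had a genotype effect that passed in both conditions with opposite signs, lower in KO at rest and higher in KO after stimulation, with a difference of 2.30 on the log2 scale. Dusp5 had the same pattern with a difference of 0.68. Dixon's test for a single outlying library was not applied to these groups of 3 libraries.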

How the results depend on the processing

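The count of 121 genes (97 higher, 24 lower) was 1012 (607 and 405) by the DESeq2 Wald test, 215 (164 and 51) with the stricter low-value filter, 3080 (1304 and 1776) by limma voom with library weights, 21 (20 and 1) with the myeloid covariate, 209 (183 higher) without both resting replicate 1 libraries, and with DESeq2 size factors 38 were lower. The cause of these changes was not tested. Leave-one-out counts ran from 27 to 1646, with 24 to 905 higher and 2 to 741 lower. Genotype calls at rest (161) were 1190 by DESeq2, 392 with the filter, 4655 by voom, 62 with the covariate, 6 in the 6 resting libraries alone and 18 to 2338 with a library left out. Those in stimulated cells (219) were 768 by DESeq2, 1176 by voom, 719 in the 6 stimulated libraries, 466 without both resting replicate 1 libraries and 62 to 382 with a library left out. Responses to stimulation fell to 6198 genes in WT and 7997 in KO with the covariate, and ran from 14358 to 14955 and from 14040 to 14866 with a library left out. None of the 121 called genes reversed its direction, while the differences of Pkm, Bax, Ldha and Pdha1, which were not called, changed sign between settings. The settings reuse the libraries that chose the called genes, so this contrast follows largely from the choice and is no support. Whether replicate numbers pair the samples was not settled. Deviations of same-numbered WT and KO libraries correlated at 0.33, -0.11 and 0.27 at rest and at -0.03, 0.01 and 0.02 after stimulation. At rest, summed erythroid markers fell with replicate number in WT (1556, 480 and 66 CPM) and in KO (1613, 211 and 136.5). Summed myeloid markers fell in WT (6324, 3295 and 2065 CPM) and rose in KO (1635, 1742 and 1799). With the replicate block 95 genes passed in the difference (12 lower) and 101 at rest, and with the replicate block within each condition 132 (11 lower) and 79. With 3 libraries a group, counts per gene limit the low members most, and the calls near the threshold came and went with single libraries.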

Other observations

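Lysosomal and autophagy genes were a further list with more members above than below 0 in the difference of responses, 23 of 30 with a median of 0.18, and none passed by edgeR (11 at an unadjusted p under 0.05). Their median KO to WT effect was -0.13 at rest and 0.03 in stimulated cells, and every resting KO library lay below every resting WT library for 14 of the 30, as it did for 9.82% of all genes. With the myeloid covariate the median was 0.00. Ctsb, a lysosomal protease, measured 798 ± 432 CPM in resting WT and 360.5 ± 5.23 in resting KO (SD, n = 3), and 205 ± 5.37 and 196 ± 3.32 in stimulated WT and KO.

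Cytosolic ribosomal protein genes were lower in KO in sign in both conditions, with 47 of 47 below 0 at rest and in stimulated cells and medians of -0.11 and -0.05. In the difference 44 of 47 lay above 0 with a median of 0.06, none passed by edgeR (0 at an unadjusted p under 0.05), and the median was -0.04 without resting WT replicate 3.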
